A study of Mus musculus with 12 samples.

Results

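The 10 genes described here mark T cells and their subsets: Cd3e, Cd3d and Cd3g of the T cell receptor complex, the coreceptors Cd4, Cd8a and Cd8b1, the regulatory and co-receptor genes Foxp3, Ctla4 and Icos, and the cytotoxic gene Gzmb. They were taken by symbol from the table of raw counts, 10 of 18514 genes, by a rule that uses no measured value, though with earlier results of these data known, and all 10 were among the 15484 genes tested after removal of low counts. Each was followed over 12 libraries of mouse colorectal tissue, 1 library from each of 12 mice.

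A T cell reads antigen through its receptor, and the CD3 proteins carry that signal into the cell, so that their genes are transcribed in nearly every T cell. CD4 marks helper and regulatory T cells, while CD8 marks cytotoxic T cells, which kill with granzymes. In the colon, regulatory T cells that express FOXP3 restrain the response to microbes, and these cells carry much CTLA-4 and ICOS on their surface.

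Male C57BL/6 mice, bought at 4 weeks of age, formed 4 groups of 3 libraries. Ctrl mice drank ordinary water, received neither azoxymethane (AOM, a colon carcinogen) nor dextran sulfate sodium (DSS, which injures the colon lining), and did not train. Ctrl_Swim mice were also free of AOM/DSS but swam daily. Model mice were given AOM once by intraperitoneal injection and then 3 cycles of DSS in drinking water, which together produce colitis-associated cancer, and did not train. Model_Swim mice were given the same AOM/DSS and swam daily, starting 2 months before it. The colon was taken from the distal cecum to the rectum, and which part of it or which lesions entered each library is not given in the sources used here. The libraries of Ctrl_Swim carry the numbers 2, 3 and 4 in the labels, and the others 1, 2 and 3.

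Total counts were 17256953 to 19451055 per library. Colon epithelium genes were abundant in every library (summed level of the 12 listed genes, 12463 to 29470 CPM, which are counts scaled to the size of the library), which fits the label of the tissue, and all CD3 genes were detected in every library. Other tissues also entered some libraries. The 10 listed genes of pancreatic acinar cells, which make digestive enzymes, summed to 40791 CPM in Model 1 and 19701 CPM in Model 3 and to between 13.0 and 95.8 CPM in the other 10 libraries. The 8 listed genes of squamous epithelium, the lining of the anus and skin, summed to 2.50 to 4.53 CPM in all Ctrl libraries, Ctrl_Swim 3 and Model 3, and to between 44.9 and 1368 CPM in the rest. The fold changes, counts and ratios that rest on Model 1 and Model 3 are therefore also given, in turn or as a count or median, without these libraries. Model 2 then stands alone for its group and is assumed to vary like the other groups. Model 2 also holds the highest squamous sum of the 12 libraries, 1368 CPM. Leaving out Model 1 and Model 3 thus removes the high pancreatic levels but not the squamous ones.

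The CD3 genes lie together on chromosome 9 of the mouse genome (build GRCm38.p6, RefSeq), with Cd3g at 44969572 to 44980431 on the minus strand, Cd3d at 44981769 to 44987052 on the plus strand and Cd3e at 44998735 to 45009663 on the minus strand. Cd3g and Cd3d are read away from each other from starts 1338 bases apart. Since the 3 genes moved together in the results that follow, the RefSeq promoter windows of this cluster are shown from 250 bases before to 50 bases after a start, in the direction of transcription (Cd3g, chr9:44980382-44980681, minus strand; Cd3d, chr9:44981536-44981835, plus strand; Cd3e, chr9:45009562-45009861, minus strand). Capitals mark the letters AGGAAG, the core bound by ETS factors, or TGGAAA, the core bound by NFAT factors, searched on both strands. The letters TGTGGT, the core bound by RUNX factors, were searched in the same way, as were TGANTCA, the core of AP-1 sites, and TATAAA, the core of a TATA box.
Cd3g: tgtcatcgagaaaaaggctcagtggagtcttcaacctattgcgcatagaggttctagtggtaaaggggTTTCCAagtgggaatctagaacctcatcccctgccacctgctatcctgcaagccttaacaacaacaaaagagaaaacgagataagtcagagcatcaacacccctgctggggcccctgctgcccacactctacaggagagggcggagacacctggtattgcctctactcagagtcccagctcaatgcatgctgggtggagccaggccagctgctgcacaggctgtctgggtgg
Cd3d: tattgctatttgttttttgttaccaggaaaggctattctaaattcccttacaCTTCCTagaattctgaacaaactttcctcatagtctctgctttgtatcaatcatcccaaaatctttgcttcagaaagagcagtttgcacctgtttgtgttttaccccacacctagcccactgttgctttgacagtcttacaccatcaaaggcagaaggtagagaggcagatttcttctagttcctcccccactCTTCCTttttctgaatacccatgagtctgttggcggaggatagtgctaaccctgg
Cd3e: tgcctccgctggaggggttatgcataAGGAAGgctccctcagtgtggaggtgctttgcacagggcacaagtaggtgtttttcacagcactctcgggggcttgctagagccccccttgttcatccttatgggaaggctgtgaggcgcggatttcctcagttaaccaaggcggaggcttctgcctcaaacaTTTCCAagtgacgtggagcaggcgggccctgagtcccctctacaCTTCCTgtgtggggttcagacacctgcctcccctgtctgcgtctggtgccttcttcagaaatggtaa
Counted from the start on which each window was set, Cd3d held the ETS letters at -198 and -5. Cd3e held them at -224 and -17 and the NFAT letters at -61, and Cd3g held only the NFAT letters, at -182. For Cd3d and Cd3e this start is not the gene start given above but lies inside the gene. The letters at -5 in Cd3d and at -17 in Cd3e therefore fall within the gene as placed above. Among all 32851 promoter windows of the same length, 35.4% held the ETS letters and 21.4% the NFAT letters, so these matches describe the sequence and name no bound site. The motifs do not overlap one another in these windows. Of the members, Ctla4, Cd8a, Gzmb and Foxp3 were also found in the promoter table, while Cd4, Cd8b1 and Icos were not.

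Transcripts of the CD3 complex were about 2-fold higher in Model than in Ctrl colon. Cd3e, which encodes CD3 epsilon, stood at 2.37, 3.82 and 2.36 CPM in Ctrl 1, 2 and 3 and at 5.15, 4.79 and 8.84 CPM in Model 1, 2 and 3. Its level was 3.45, 2.87 and 6.90 CPM in Ctrl_Swim 2, 3 and 4 and 2.86, 4.30 and 4.77 CPM in Model_Swim 1, 2 and 3. Thus every Model library lay above every Ctrl library, every Model_Swim library lay below every Model library, and Ctrl_Swim 4 stood apart from the other libraries of its group. Cd3d, the CD3 delta gene, was at 1.21, 2.13 and 1.92 CPM in Ctrl, at 2.74, 1.60 and 4.19 CPM in Ctrl_Swim, at 3.75, 3.65 and 4.02 CPM in Model and at 2.92, 2.77 and 4.35 CPM in Model_Swim, each in the order of the library numbers. Cd3g, the CD3 gamma gene, was at 2.93, 3.87 and 1.81 CPM in Ctrl, at 3.12, 3.09 and 8.74 CPM in Ctrl_Swim, at 6.49, 6.21 and 8.09 CPM in Model and at 4.51, 4.30 and 5.94 CPM in Model_Swim. For both genes Model lay above Ctrl without overlap, whereas the highest Model_Swim library of Cd3d exceeded all Model libraries.

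Fitted by edgeR's quasi-likelihood test with Benjamini-Hochberg adjustment over the 15484 genes, all 3 CD3 genes rose from Ctrl to Model. Fold changes on the log2 scale were 1.13 ± 0.38 (SE) for Cd3e (adjusted p = 0.0412), 1.11 ± 0.35 for Cd3d (adjusted p = 0.0320) and 1.27 ± 0.40 for Cd3g (adjusted p = 0.0340). These calls were close to the threshold. Leaving out any 1 of Ctrl 1, Ctrl 3 and Model 3 lost the calls of all 3 genes, with an adjusted p of 0.118, 0.120 and 0.121 for Cd3e. Cd3d also lost its call without Ctrl 2 (adjusted p = 0.0522), Model 1 (0.0510) or Model 2 (0.0607), Cd3g without Model 2 (0.0566) and Cd3e without Model_Swim 2 (0.0537). Without Model 1 and Model 3, the log2 fold changes were 0.73 for Cd3e, 1.03 for Cd3d and 1.09 for Cd3g (edgeR's adjusted p = 0.286, 0.140 and 0.166). In bulk tissue, more T cells and more of these RNAs per T cell cannot be told apart.

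**Figure D1:**
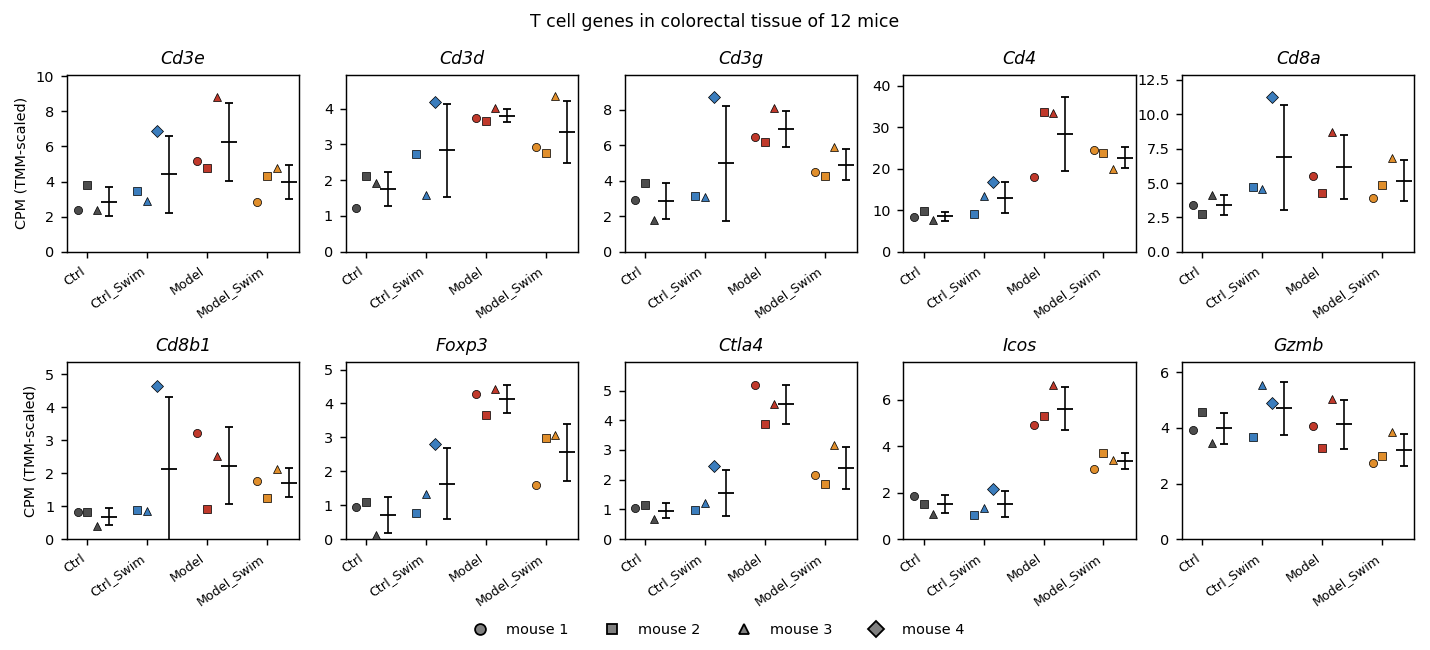
Level of each of the 10 genes in every library, as CPM (counts scaled to library size with TMM factors, linear axes from 0), by group. Each symbol is 1 mouse, the marker shape gives its number, and the black bars beside them are the mean ± SD of the 3 libraries (cut at 0 where the SD exceeds the mean). The Model libraries lie above all Ctrl libraries for every gene but Gzmb, and the Ctrl_Swim 4 diamond stands highest in its group for every gene but Gzmb.

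Of the coreceptors, Cd4 was about 3-fold higher in Model than in Ctrl, while Cd8a and Cd8b1 did not pass the test. Cd4 was at 8.28, 9.70 and 7.64 CPM in Ctrl 1, 2 and 3, at 9.10, 13.3 and 16.7 CPM in Ctrl_Swim 2, 3 and 4, at 18.1, 33.7 and 33.3 CPM in Model 1, 2 and 3 and at 24.4, 23.7 and 19.9 CPM in Model_Swim 1, 2 and 3. All 6 libraries given AOM/DSS lay above all 6 others, the closest being Model 1 and Ctrl_Swim 4. The log2 fold change from Ctrl to Model was 1.73 ± 0.26 (edgeR's adjusted p = 0.00124), and it stayed past the cutoffs when Model 1 and Model 3 were left out (1.96, adjusted p = 0.000851). Besides T cells, some macrophages, dendritic cells and innate lymphoid cells of the mouse also transcribe Cd4. The 13 listed genes of macrophages and dendritic cells summed to 304 to 319 CPM in Ctrl, 292 to 343 CPM in Ctrl_Swim, 449 to 521 CPM in Model and 424 to 501 CPM in Model_Swim, so that they too were higher in all AOM/DSS libraries, and their part in the level of Cd4 was not tested.

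Cd8a encodes the CD8 alpha chain, which forms either a pair with CD8 beta on conventional cytotoxic T cells or a pair with itself on many lymphocytes of the gut epithelium, while Cd8b1 encodes the beta chain. Cd8a was at 3.37, 2.73 and 4.12 CPM in Ctrl, at 4.71, 4.58 and 11.3 CPM in Ctrl_Swim, at 5.52, 4.25 and 8.72 CPM in Model and at 3.91, 4.84 and 6.79 CPM in Model_Swim. Cd8b1 was at 0.828, 0.818 and 0.385 CPM in Ctrl, at 0.877, 0.851 and 4.65 CPM in Ctrl_Swim, at 3.22, 0.926 and 2.53 CPM in Model and at 1.76, 1.25 and 2.12 CPM in Model_Swim. The highest of all 12 libraries was Ctrl_Swim 4 for both genes, and Model 2 was the lowest Model library for both. From Ctrl to Model the log2 fold change was 0.85 (95% interval -0.01 to 1.72) for Cd8a and 1.71 (0.16 to 3.25) for Cd8b1, with an adjusted p of 0.114 and 0.0828 by edgeR. Cd8b1 passed the cutoffs by DESeq2 (adjusted p = 0.0437) and in edgeR without Ctrl_Swim 4 (adjusted p = 0.0234), whereas without Model 1 and Model 3 its log2 fold change was 0.43 (adjusted p = 0.761). Cd8b1 ends 35935 bases before Cd8a starts, on chromosome 6.

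The regulatory genes showed the largest differences between Model and Ctrl among the 10. Foxp3, the transcription factor that defines regulatory T cells, was at 0.938, 1.09 and 0.110 CPM in Ctrl, the last being 2 counts, and at 0.767, 1.33 and 2.81 CPM in Ctrl_Swim. It was at 4.29, 3.65 and 4.42 CPM in Model and at 1.60, 2.99 and 3.07 CPM in Model_Swim. The Model libraries were the 3 highest of the 12 and did not overlap any other group. The log2 fold change from Ctrl to Model was 2.52 ± 0.63 (edgeR's adjusted p = 0.0124). Without Ctrl 3, the library of 2 counts, it was 2.04 (adjusted p = 0.0243), and without Model 1 and Model 3 it was 2.32 and no longer passed (adjusted p = 0.0563).

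Ctla4, which encodes an inhibitory receptor of T cells that binds CD80 and CD86, was at 1.05, 1.14 and 0.660 CPM in Ctrl, at 0.986, 1.22 and 2.45 CPM in Ctrl_Swim, at 5.20, 3.87 and 4.53 CPM in Model and at 2.15, 1.85 and 3.18 CPM in Model_Swim. Icos, which encodes a costimulatory receptor of activated T cells, was at 1.88, 1.53 and 1.10 CPM in Ctrl, at 1.04, 1.33 and 2.15 CPM in Ctrl_Swim, at 4.93, 5.28 and 6.66 CPM in Model and at 3.03, 3.70 and 3.39 CPM in Model_Swim. For both genes the 3 Model libraries were again the highest of all, and for Icos the 3 Model_Swim libraries came next, above every library without AOM/DSS. The log2 fold change from Ctrl to Model was 2.25 ± 0.38 for Ctla4 and 1.90 ± 0.30 for Icos (edgeR's adjusted p = 0.00213 and 0.00144). Both calls held without Model 1 and Model 3, with log2 fold changes of 2.0 and 1.79 (adjusted p = 0.0175 and 0.00917). The genes are neighbours on chromosome 1, Icos starting 44941 bases after the end of Ctla4.

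The promoter windows of Foxp3 and Ctla4, the 2 members with the largest fold changes, are shown with the same letters in capitals (GRCm38.p6, RefSeq; Foxp3, chrX:7579426-7579725, plus strand, the first of 2 starts in the promoter table; Ctla4, chr1:60908775-60909074, plus strand). The window of Gzmb, the member whose level differed least between Model and Ctrl, stands beside them (chr14:56262285-56262584, minus strand).
Foxp3: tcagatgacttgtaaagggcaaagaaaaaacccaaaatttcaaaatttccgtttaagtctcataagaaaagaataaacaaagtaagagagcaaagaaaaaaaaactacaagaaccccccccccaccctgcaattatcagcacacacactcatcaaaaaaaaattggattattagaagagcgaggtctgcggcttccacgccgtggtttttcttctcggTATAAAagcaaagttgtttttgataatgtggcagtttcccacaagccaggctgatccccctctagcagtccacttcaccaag
Ctla4: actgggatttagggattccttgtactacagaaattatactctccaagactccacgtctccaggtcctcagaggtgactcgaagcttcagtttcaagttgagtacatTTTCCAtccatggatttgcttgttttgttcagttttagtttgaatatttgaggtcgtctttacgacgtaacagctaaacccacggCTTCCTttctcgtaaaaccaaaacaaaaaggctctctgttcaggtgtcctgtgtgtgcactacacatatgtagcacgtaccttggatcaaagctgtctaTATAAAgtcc
Gzmb: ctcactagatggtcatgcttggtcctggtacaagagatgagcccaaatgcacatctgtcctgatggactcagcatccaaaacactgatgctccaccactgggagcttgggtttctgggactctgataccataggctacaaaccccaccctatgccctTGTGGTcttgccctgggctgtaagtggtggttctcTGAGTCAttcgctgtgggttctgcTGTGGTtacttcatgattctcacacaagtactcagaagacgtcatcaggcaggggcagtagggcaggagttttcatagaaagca
Foxp3 held the TATA letters at -32 in this window, while the window of its other start (chrX:7580233-7580532) held the ETS letters at -226 and the NFAT letters at -140. Ctla4 held the NFAT letters at -144, the ETS letters at -59 and the TATA letters at 40 bases after the start. Gzmb was the only member in the table whose window held the RUNX letters, at -93 and -34, and it held the AP-1 letters at -58. Of all promoter windows, 16.8% held the RUNX letters, 7.81% the AP-1 letters and 13.6% the TATA letters. The window of Cd8a held none of the 5 motifs.

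Gzmb encodes granzyme B, a protease that cytotoxic lymphocytes release into target cells. It was at 3.92, 4.58 and 3.46 CPM in Ctrl, at 3.67, 5.53 and 4.91 CPM in Ctrl_Swim, at 4.07, 3.27 and 5.05 CPM in Model and at 2.75, 2.99 and 3.87 CPM in Model_Swim. All 4 groups overlapped. The log2 fold change from Ctrl to Model was 0.05, with a 95% interval from -0.46 to 0.57 that excludes a 2-fold difference in either direction (edgeR's adjusted p = 0.884). The sign of this small value turned in 4 of 24 alternatives. Gzmb belongs to a cluster of related granzyme genes, and how reads that match several of them were counted is not given in the sources used here.

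Compared per length, in the deposited FPKM values (reads scaled by gene length and library depth), the order of the genes differed between groups. In Ctrl, the mean FPKM was highest for Cd3g and Gzmb (2.65 ± 0.97 and 2.65 ± 0.40, SD, n = 3), followed by Cd4 (2.24 ± 0.30), Cd3e (1.77 ± 0.54), Cd3d (1.10 ± 0.31) and Cd8a (1.02 ± 0.20). Ctla4 (0.464 ± 0.127), Cd8b1 (0.450 ± 0.169), Icos (0.328 ± 0.084) and Foxp3 (0.171 ± 0.127) were the lowest. The ranges of neighbours in this order overlapped, apart from those of Cd3e and Cd3d and of Cd8a and Ctla4. In Model, Cd4 came first (8.06 ± 2.57), followed by Cd3g (6.90 ± 0.94) and Cd3e (4.20 ± 1.46), and then Gzmb (2.97 ± 0.61) and Foxp3 still last (1.07 ± 0.09). The ranges of Cd4 and Cd3g overlapped there, as did those of Cd3e and Gzmb, whereas those of Cd3g and Cd3e did not. Foxp3, with the largest fold change of the 10, remained the least abundant per length in both groups.

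Taken over the 10 genes, Model and Ctrl differed in 7, all higher in Model by more than 2-fold at an adjusted p below 0.05. Of all genes tested, 6.21% were higher by the same cutoffs. The 3 Model libraries lay above the 3 Ctrl libraries in 9 of the 10 genes, against 21.0% of all genes. The median log2 fold change of the 10 was 1.49, against 0.01 for all genes. The count was 4 without Ctrl 1, without Ctrl 3 or without Model 3, each time Cd4, Foxp3, Ctla4 and Icos. It was 3 (Cd4, Ctla4 and Icos) without Model 1 and Model 3 and with the level of the pancreatic genes as a covariate.

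**Figure D2:**
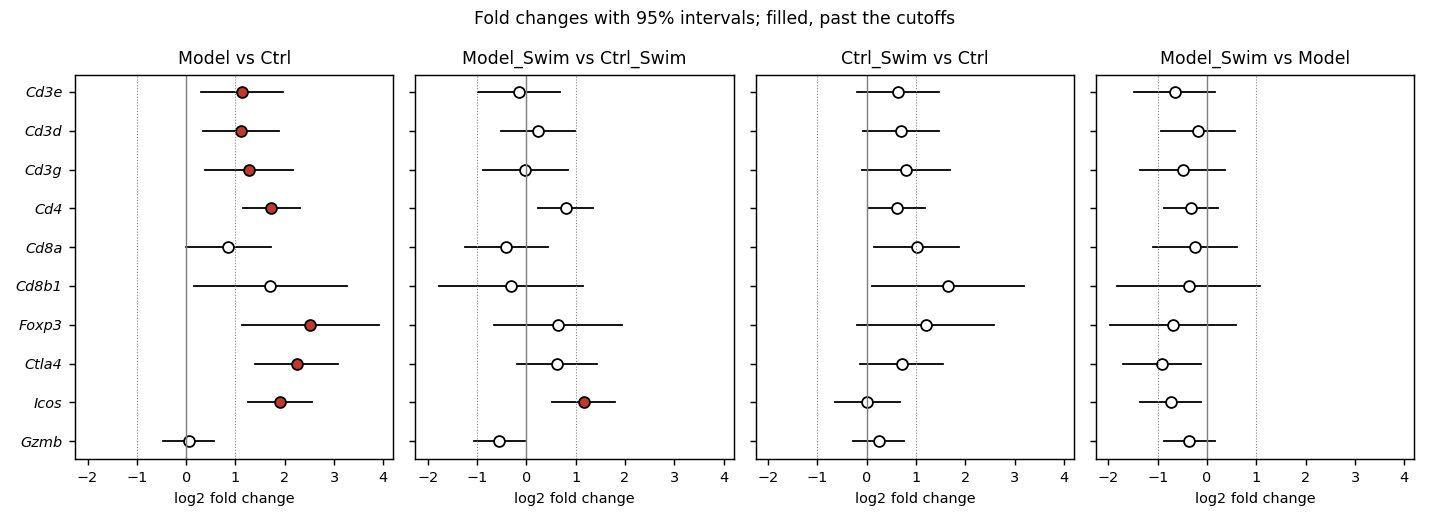
Log2 fold change of each gene (points) with its 95% interval (lines) in 4 comparisons from the edgeR fit of all 12 libraries. Filled points differed by more than 2-fold at an adjusted p below 0.05, dotted lines mark a 2-fold change, and 7 genes are filled for Model vs Ctrl, 1 (Icos) for Model_Swim vs Ctrl_Swim and 0 in the swimming comparisons.

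Whether swimming altered these transcripts in AOM/DSS-treated mice was addressed by comparing Model_Swim with Model. All 10 genes had a lower fitted level in Model_Swim, with a median log2 fold change of -0.44 against -0.01 for all genes, yet 0 of 10 passed by edgeR or by DESeq2. Of all genes tested, 0.0710% passed in either direction by edgeR and 0.625% by DESeq2. The median of the 10 was -0.67 without Model 2, and -0.29 without Model 3 or without both Model 1 and Model 3. It was -1.21 with a term that divides the libraries by their level of pancreatic genes. That term has all Model libraries on its upper side and all Model_Swim libraries on its lower side. Only Ctrl_Swim is split by it, with Ctrl_Swim 3 above and Ctrl_Swim 2 and 4 below. The size of the term rests on those libraries, so the -1.21 cannot tell swimming from the pancreatic level. Ctla4 was at 4.53 ± 0.67 CPM (SD, n = 3) in Model and 2.39 ± 0.70 CPM in Model_Swim, a log2 fold change of -0.92 (95% interval -1.71 to -0.13) that did not pass the adjustment (unadjusted p = 0.0261, adjusted p = 0.306, edgeR). Icos was at 5.62 ± 0.91 CPM in Model and 3.37 ± 0.34 CPM in Model_Swim, a log2 fold change of -0.74 (-1.36 to -0.12, unadjusted p = 0.0241, adjusted p = 0.298, edgeR). These were the only 2 members with an unadjusted p under 0.05, a share of 2 in 10 beside 13.6% of all genes.

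In 5 genes (Cd3e, Cd3g, Foxp3, Ctla4 and Icos) the 3 Model_Swim libraries lay below the 3 Model libraries, as they did in 8.57% of all genes. The log2 fold change was -0.69 for Foxp3 (-1.96 to 0.58), -0.65 for Cd3e (-1.47 to 0.17) and -0.49 for Cd3g (-1.36 to 0.37). The intervals of Cd3d (-0.93 to 0.56), Cd4 (-0.87 to 0.22), Cd8a (-1.10 to 0.60), Cd8b1 (-1.83 to 1.08) and Gzmb (-0.88 to 0.15) also included 0. Without Model 1 and Model 3, Cd8a and Cd8b1 were higher in Model_Swim by 0.30 and 0.90 on the log2 scale (edgeR's adjusted p = 0.798 and 0.654), and the other 8 members remained lower. Except for Gzmb, the mean of Model_Swim fell between a lower Ctrl mean and a higher Model mean, a pattern of 9 members and of 28.7% of all genes.

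In mice without AOM/DSS, the swimming group had higher means than Ctrl for all 10 genes, as it had for 50.1% of all genes. For Icos the log2 fold change was only 0.007. By edgeR 0 of 10 passed (0.168% of all genes did), and 0 of 10 by DESeq2 (0.413%), which gave no adjusted p for Cd8b1. Cd8a, Cd8b1 and Cd4 had an unadjusted p under 0.05, 3 of 10 genes beside 17.6% of all genes. Their log2 fold changes were 1.01 ± 0.39, 1.65 ± 0.70 and 0.61 ± 0.26 (edgeR's adjusted p = 0.228, 0.260 and 0.258). The Ctrl_Swim libraries lay above the Ctrl libraries for 2 genes, Cd8a and Cd8b1, and for 12.6% of all genes.

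The sizes of most of these differences depended on Ctrl_Swim 4. This library was the highest of its group for 9 of the 10 members, against 30.7% of all genes, and it exceeded the next library 5.31-fold for Cd8b1, 2.80-fold for Cd3g and 2.40-fold for Cd8a. Without it, the median log2 fold change of the 10 genes between Ctrl_Swim and Ctrl was 0.27 in place of 0.70, and Cd8a and Cd8b1 were at 0.46 and 0.36 (edgeR's adjusted p = 0.656 and 0.857). The other 2 libraries of the group still lay above Ctrl for both. For Cd8b1 they held 16 counts each against 7 to 15 in Ctrl, and the highest Ctrl count is within their counting error. Without Ctrl_Swim 4, Cd4 was at 0.40 and Gzmb at 0.22, in place of 0.24. Icos then turned sign, at -0.33 in place of 0.007 (edgeR's adjusted p = 0.724). The summed level of the 14 listed B cell and follicle genes was also highest of all libraries in Ctrl_Swim 4, at 372 CPM beside 163 and 186 CPM in Ctrl_Swim 2 and 3. Its squamous genes summed to 312 CPM, beside 44.9 and 2.50 CPM. The part of these tissues in the T cell transcripts of Ctrl_Swim 4 was not tested.

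**Figure D3:**
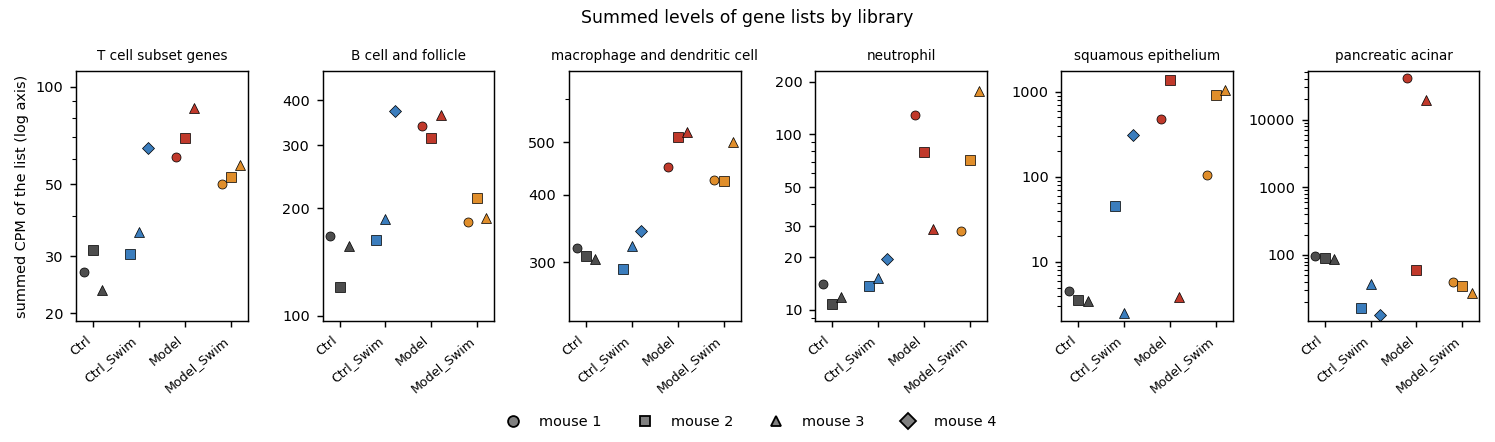
Summed level (CPM, log axes with a different range in each panel) of the 10 T cell subset genes and of 5 lists of genes of other cell types in each of the 12 libraries, with the marker shape giving the mouse number. Ctrl_Swim 4 stands with the Model libraries for the T cell and B cell genes (64.8 and 372 CPM), and only Model 1 and Model 3 hold high levels of pancreatic genes.

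Between the swimming groups, with and without AOM/DSS, only Icos passed. It rose from 1.51 ± 0.57 CPM in Ctrl_Swim to 3.37 ± 0.34 CPM in Model_Swim (SD, n = 3), a log2 fold change of 1.16 ± 0.29 (edgeR's adjusted p = 0.0470), 1 of 10 genes beside 0.924% of all genes. This call was lost in 17 of 24 alternatives, where its adjusted p reached 0.143, and its direction held in all 24. Leaving out any 1 of Ctrl 1, Ctrl 2, Ctrl 3, Ctrl_Swim 2, Ctrl_Swim 3, Model 2, Model_Swim 1, Model_Swim 2 and Model_Swim 3 lost it, so that the count was then 0. The Model_Swim libraries lay above the Ctrl_Swim libraries for Icos and Cd4, 2 of 10 genes beside 15.9% of all genes, and Cd4 had a log2 fold change of 0.80 ± 0.25 (adjusted p = 0.0937). The CD3 genes differed little, at -0.15 for Cd3e, 0.23 for Cd3d and -0.02 for Cd3g, with intervals from -0.97 to 0.67, from -0.52 to 0.98 and from -0.89 to 0.85. Without Ctrl_Swim 4 the values were 0.33, 0.63 and 0.66.

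Averaged over untrained and swimming mice, the AOM/DSS effect passed for Cd4, Foxp3, Ctla4 and Icos, 4 of 10 genes beside 3.54% of all genes. Its size on the log2 scale was 1.26 ± 0.18 for Cd4 (edgeR's adjusted p = 0.000671), 1.58 ± 0.43 for Foxp3 (adjusted p = 0.0171), 1.43 ± 0.26 for Ctla4 (adjusted p = 0.00256) and 1.53 ± 0.21 for Icos (adjusted p = 0.000528). For Foxp3 and Ctla4 this mean rested more on the untrained mice, at 2.52 and 2.25 between Model and Ctrl. Between Model_Swim and Ctrl_Swim these genes were at 0.64 and 0.62 and did not pass (edgeR's adjusted p = 0.574 and 0.356). The intervals there ran from -0.66 to 1.94 and from -0.19 to 1.43. Without Ctrl_Swim 4 the values in swimming mice were 1.28 and 1.11 (edgeR's adjusted p = 0.286 and 0.110). For Cd4 and Icos all 6 AOM/DSS libraries lay above the 6 others, 2 of 10 genes beside 5.97% of all genes. The CD3 genes were at 0.49, 0.67 and 0.62 for Cd3e, Cd3d and Cd3g and did not pass (adjusted p = 0.175, 0.0536 and 0.110). Without Ctrl_Swim 4 they were at 0.74, 0.88 and 0.98, below 2-fold but with an adjusted p of 0.0342, 0.0146 and 0.00557 by edgeR. Cd8b1 then passed, at 1.35 in place of 0.69 (adjusted p = 0.0190 in place of 0.287), so that the count was 5 of 10 beside 5.84% of all genes. Without Model 1 and Model 3, Foxp3 no longer passed (1.47, adjusted p = 0.0501).

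Whether the swimming effect differed with AOM/DSS was tested by the interaction, the log2 fold change of Model_Swim over Model less that of Ctrl_Swim over Ctrl. It was negative in all 10 genes, from -2.02 for Cd8b1 to -0.60 for Gzmb, with a median of -1.27 against 0.00 for all genes. By edgeR 0 of 10 passed, as did 0.00% of all genes, and by DESeq2 also 0 of 10, beside 1.16% of all genes. The lowest adjusted p was 0.151, for Ctla4 (-1.63 ± 0.53). An unadjusted p under 0.05 was found for 5 members (Cd3e, Cd3g, Cd4, Cd8a and Ctla4) and for 19.0% of all genes. The median of the 10 was -0.73 without Ctrl_Swim 4 and -0.85 without Model 1 and Model 3.

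The members moved by unlike amounts, which was measured by the ratio of the counts of 2 genes within a library. Such a ratio does not depend on library scaling. The number of Foxp3 counts per Cd3e count was 0.395, 0.286 and 0.0465 in Ctrl 1, 2 and 3 and 0.222, 0.463 and 0.407 in Ctrl_Swim 2, 3 and 4. It was 0.833, 0.761 and 0.5 in Model 1, 2 and 3 and 0.558, 0.696 and 0.644 in Model_Swim 1, 2 and 3. All 6 AOM/DSS libraries exceeded all 6 others, by 1.35 on the log2 scale in the mean (two-sided exact permutation test of 6 against 6, p = 0.00216, the smallest this design allows, adjusted over 8 ratios p = 0.0173). Without Ctrl 3, the library of 2 Foxp3 counts, the difference was 0.92 (exact permutation test, adjusted p = 0.0346).

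The counts per Cd3e count were also higher with AOM/DSS for Ctla4, by 0.95 on the log2 scale, for Icos, by 1.04, and for Cd4, by 0.74 (exact permutation test, adjusted p = 0.0173, 0.0173 and 0.0260). Conversely, Gzmb per Cd3e differed by -0.77 on the log2 scale and Cd8a per Cd4 by -1.01, both lower with AOM/DSS (exact permutation test, adjusted p = 0.0208 and 0.0173). Taken alone, Gzmb was at -0.25 and Cd3e at 0.49 in the AOM/DSS mean (edgeR's adjusted p = 0.265 and 0.175). Since cells other than T cells also transcribe Cd4, ratios with Cd4 need not describe T cells alone. The part of those cells in them was not tested. The Cd8a/Cd4 ratio was 0.281 to 0.540 in Ctrl, 0.344 to 0.676 in Ctrl_Swim, 0.126 to 0.306 in Model and 0.160 to 0.341 in Model_Swim, so that the AOM/DSS and other libraries overlapped at the edges. Cd8a per Cd3e (-0.27, adjusted p = 0.249) and Cd8b1 per Cd8a (0.61, adjusted p = 0.146) did not pass the exact permutation test. The latter difference was 0.37 without Ctrl 3 (adjusted p = 0.292). With the summed counts of the 3 CD3 genes in place of Cd3e, a choice made after the data were seen, the 5 ratios to Cd3e that had passed did so again, with Foxp3 at 1.21 and Gzmb at -0.91 on the log2 scale.

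The Cd4/Cd3e ratio lost its call without any 1 of Ctrl_Swim 2, Ctrl_Swim 4, Model 2, Model_Swim 1 and Model_Swim 2 (differences of 0.70, 0.67, 0.65, 0.59 and 0.72, exact permutation test, adjusted p up to 0.0519), and Cd8a/Cd3e gained one without Ctrl 2 (-0.45, adjusted p = 0.0277). Without Model 1 and Model 3, a setting added after the data were seen, 4 AOM/DSS libraries stood against 6 others. The log2 differences were then 1.36 for Foxp3/Cd3e, 0.90 for Ctla4/Cd3e, 1.08 for Icos/Cd3e, 0.99 for Cd4/Cd3e and -1.19 for Cd8a/Cd4, each with an adjusted p of 0.0305, whereas Gzmb/Cd3e (-0.70, adjusted p = 0.0508) lost its call (exact permutation test). Between Model_Swim and Model, 3 libraries against 3 cannot give an exact permutation p below 0.10. There the log2 difference was -0.11 for Foxp3/Cd3e, -0.31 for Ctla4/Cd3e and -0.10 for Icos/Cd3e, with overlapping libraries. Only Cd8a/Cd3e did not overlap, at 0.886 to 1.07 in Model and 1.13 to 1.42 in Model_Swim (exact permutation test, p = 0.10, adjusted p = 0.80).

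**Figure D4:**
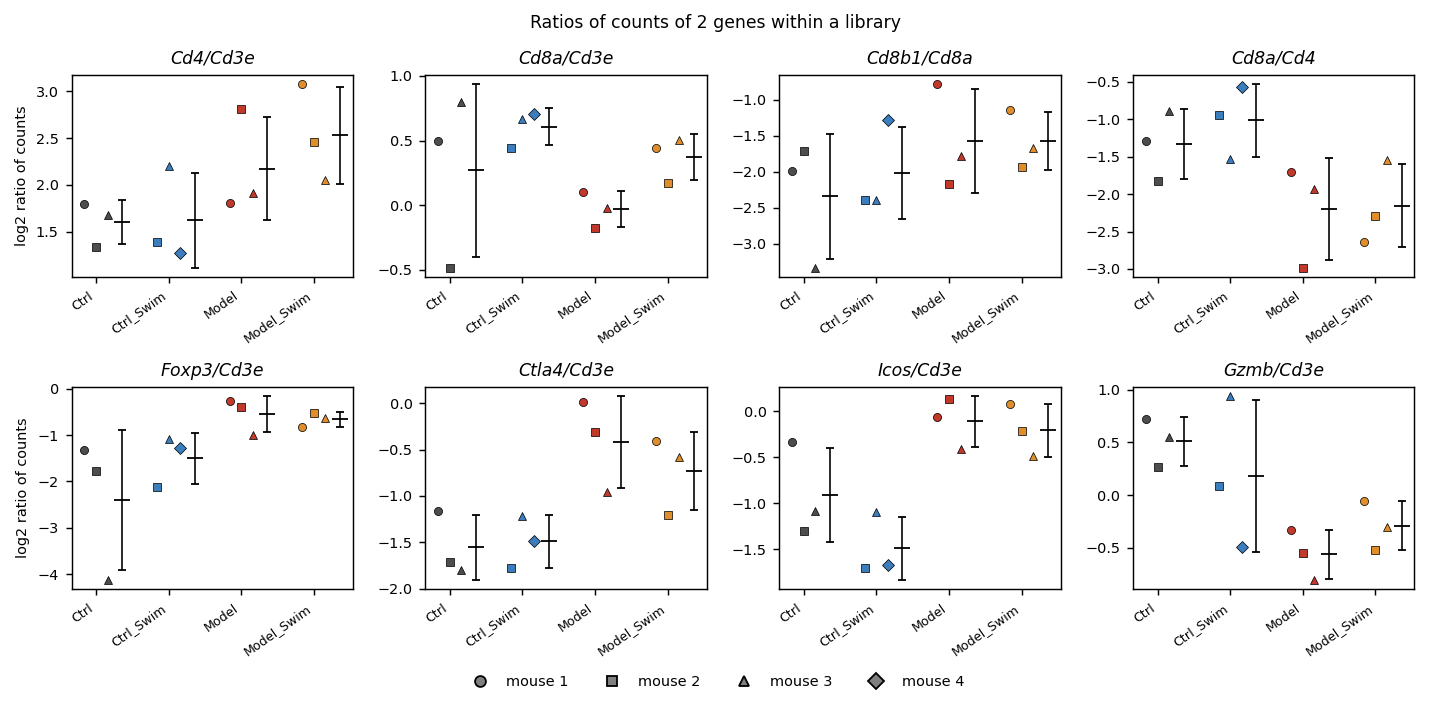
Log2 of the ratio of the counts of 2 genes within each library (0.5 added to each count), by group, with the marker shape giving the mouse number and black bars the mean ± SD of 3 libraries. All 6 Model and Model_Swim libraries lie above all Ctrl and Ctrl_Swim libraries for Foxp3/Cd3e, whereas Cd8a/Cd4 lies lower in the AOM/DSS libraries with some overlap.

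Other genes were followed in 13 lists with 160 genes in all, of which 143 were tested and 0 fell between Ctrl and Model by the cutoffs. By the same cutoffs, 6.21% of all genes tested rose, the share to set beside each count of the lists. Of 15 tested genes of T cell receptor signalling, 8 rose (median log2 fold change 1.19), from Cd247, the CD3 zeta chain that completes the complex (2.05 ± 0.43, edgeR's adjusted p = 0.00519), to Grap2 at 1.12. Fyn, a Src family kinase and the most abundant of the list, was at 0.69 and below 2-fold, and Txk was lowest at 0.61 (adjusted p = 0.401). Trac, Trbc1, Trbc2 and Trdc, the constant segments of the receptor itself, were not found by symbol among the 18514 genes and so could not be analysed. Of 15 genes of T cell surface and lineage, 10 rose (median 1.23), among them Ccr7 (2.05), a chemokine receptor of naive T cells, and Cd27 (2.23), a costimulatory receptor. The highest was Lef1 (3.06, adjusted p = 0.0255), a Wnt effector that epithelial tumours can also express, and the lowest was Bcl11b (0.05, adjusted p = 0.758). The count without Model 1 and Model 3 was 1 of 16 in the signalling list (Lcp2, median 0.82) and 2 of 15 in the surface list (Cd5 and Cd6, median 0.99), beside 5.91% of all genes, and Cd247 and Lef1 were at 1.59 and 1.82 (edgeR's adjusted p = 0.0543 and 0.189).

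The regulatory list gave 5 of 11 (median 1.06), with Il2ra (1.67), the high-affinity receptor chain for IL-2, and the TNF receptors Tnfrsf4 (1.83) and Tnfrsf9 (2.37, edgeR's adjusted p = 0.00789) among them. The others were Il1rl1 (1.08) and Nt5e (1.25), the most abundant of the list. Their mean levels, 11.6 and 61.1 CPM in Ctrl and 24.5 and 146 CPM in Model, exceeded those of Foxp3 (0.713 and 4.12 CPM). Which cells transcribe Il1rl1 and Nt5e in this tissue was not tested. Ikzf2, which encodes HELIOS, was the lowest, at 0.19 (adjusted p = 0.565). The co-stimulation and checkpoint list gave 6 of 9 (median 1.28), led by Pdcd1, the PD-1 receptor (2.39 ± 0.50, adjusted p = 0.00564), with Btla (1.50), Cd86 (1.36), Havcr2 (1.29), Lag3 (1.28) and Cd274 (1.24). Icosl, which encodes the ligand of ICOS, was at 0.59 (adjusted p = 0.00439) and did not reach 2-fold. The lowest was Pdcd1lg2, which encodes a ligand of PD-1, at 0.34 (adjusted p = 0.482). When Model 1 and Model 3 were left out, the median of the 13 regulatory genes was 1.18, with Tnfrsf9 at 2.35. Il2ra and Tnfrsf4, at 1.62 and 1.77, then no longer passed. The median of the checkpoint list was 1.29, with Pdcd1 at 2.53.

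Of 13 tested cytotoxic genes, 1 rose (median 0.63), namely Klrk1 (1.27), beside 6.21% of all genes. Prf1, which encodes the pore-forming perforin, was at 1.58 ± 0.56 (edgeR's adjusted p = 0.0518), and Gzmk was at -0.24 (adjusted p = 0.782). The most abundant gene of the list, Itgae, an integrin of intraepithelial lymphocytes, was at 0.25 (adjusted p = 0.252). That fewer of these than of the other lists passed was not tested as a difference. Of 12 tested genes of helper subsets, 4 rose (median 1.03), with Il17a the highest at 3.03 (adjusted p = 0.0349, 0 to 28 counts per library), together with Ccr6 (1.66), Cxcr5 (1.53) and Tbx21 (1.31). Il13 was the lowest of the list (-0.73, adjusted p = 0.532). In the fit that leaves out Model 1 and Model 3, 1 of 14 cytotoxic genes passed (Fasl, median 0.34) and 0 of 13 of the helper list (median 1.21), where Il17a was at 2.60 (edgeR's adjusted p = 0.129) and Il13 at 0.32.

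Lists of other cells that a piece of colon can hold moved as well. Between Model and Ctrl, 10 of 14 B cell and follicle genes rose (median 1.54), 6 of 8 neutrophil genes (median 3.98), 2 of 13 macrophage and dendritic cell genes (median 0.77), 1 of 3 natural killer and innate lymphoid genes (median 1.01), 10 of 10 pancreatic acinar genes (median 9.24), 7 of 8 squamous genes (median 7.65) and 0 of 12 colon epithelium genes (median -0.48). The log2 fold change between Model and Ctrl ran from Ccl21a (0.85), the most abundant, to Ccl19 (2.02) in the B cell list, both chemokines of lymphoid tissue, and from Mmp9 (0.99) to S100a8 (5.93) in the neutrophil list, with the calprotectin gene S100a9 most abundant (5.65). In the macrophage list it ran from Clec9a (0.11) to Cd68 (1.21), with the growth factor receptor gene Csf1r at 0.57, and in the natural killer list from Rora (0.75) to Il18r1 (1.54). In the epithelial lists it ran from Car1 (-1.88) to the water channel gene Aqp8 (0.54) in colon, with the mucin gene Muc2 at -0.23, from Clps (3.50) to the lipase gene Pnlip (9.43) in pancreas, with Ctrb1 at 9.31, and from Krt4 (5.62) to Sprr3 (8.68) in squamous epithelium, with Krt5 at 7.75. Of these, Ccl19, Ccl21a, Mmp9, Clec9a, Csf1r, Rora, Car1, Aqp8, Muc2 and Sprr3 did not pass the cutoffs.

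Counts of higher genes without Model 1 and Model 3 were 2 of 14 for B cells (median 1.27), 6 of 8 for neutrophils (3.97), 3 of 13 for macrophages and dendritic cells (0.76), 2 of 6 for natural killer and innate lymphoid cells (0.82), 0 of 10 for pancreas (0.26), 8 of 8 for squamous epithelium (8.73) and 1 of 12 for colon epithelium (-0.49). Clps, Car1 and Cdx2 then passed as lower, at -1.96, -4.61 and -1.06 on the log2 scale. The summed B cell list, at 121 to 167 CPM in Ctrl and 314 to 365 CPM in Model, was 183 to 213 CPM in Model_Swim, below every Model library, though 0 of its 14 genes passed between these groups (median -1.11). In the same comparison 0 genes passed in each of the other lists, and the T cell signalling and surface lists had medians of -0.49 and -0.52 (-0.18 and -0.29 without Model 1 and Model 3). The part of these cells in the levels of the 10 members was not tested.

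The genes whose pattern over the 12 libraries was most like that of a member, by Pearson r of log2 CPM among 14820 candidate genes, are named as a description, since all share the same libraries. For Cd3e they were Ptprcap (r = 0.97), which encodes a partner of the leukocyte phosphatase CD45, Kynu and Izumo4. For Cd4 they were Tacc1, Apoe, a lipid carrier made by macrophages among other cells, and Rassf2 (r = 0.97 for each). For Cd8a they were F8 (r = 0.94), Marco, a macrophage scavenger receptor, and Il27ra. For Foxp3 they were Pip4k2b (r = 0.95), Zfp334 and Nup153, and for Gzmb they were Tmem74 (r = 0.90), Tusc3 and Zfp458.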

How the data were processed

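Total RNA of colorectal tissue from 12 mice was sequenced, 1 library per mouse. Reads were trimmed (Trimmomatic), aligned to GRCm38.p6 (HISAT2) and counted per gene (HTSeq-count) by the authors. Versions, annotation release and the strand setting of the counting are not given in the sources used here. The authors deposited raw counts, whole numbers without normalization, and FPKM values from Cufflinks, which are scaled to gene length and depth. Libraries were prepared with a stranded mRNA kit.

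The deposited counts were fitted with edgeR 4.0.16 (R 4.3.3). TMM factors were 0.932 to 1.08, filterByExpr at a minimum of 10 counts left 15484 of 18514 genes, and 1 quasi-likelihood fit of the 4 groups gave each contrast. P-values were adjusted by Benjamini-Hochberg over all genes tested, and a gene passed when it differed by more than 2-fold (or below 0.5) with an adjusted p below 0.05, the cutoffs of the study. Alternatives used limma 3.58.1, DESeq2 1.42.0, other filters, scalings and covariates, and each mouse left out. Ratios had 0.5 added to each count and were tested by two-sided exact permutation in Python 3.11.15. The script was tested on simulated data.

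The 10 members and all lists were chosen with earlier results of these data known. Named genes were all members, and from each other list the tested genes of highest and lowest fold change between Model and Ctrl and, for other cell types, the most abundant. For Cd3e, Cd4, Cd8a, Foxp3 and Gzmb the 3 genes of highest Pearson r were named, leaving out gene models, pseudogenes and receptor segments. Other genes given from the lists were chosen after their values were seen. The lists and ratios without Model 1 and Model 3 were also added then. Counts of the members were 2 to 619 per library, so that counting error is large for the lowest. No 2 libraries of a group were alike within sampling noise. P-values measure the spread between these mice.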

Additional observations from a re-analysis of the deposited data

How the results depend on the processing

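Of the 10 members, Cd4 and Ctla4 passed between Model and Ctrl in all 24 alternatives, Icos in 22, Foxp3 in 20, Cd3g in 18, Cd3e in 16 and Cd3d in 14. The count of 7 was 3 by limma on log2(FPKM + 1) with and without a filter (where the added 1 lowers the fold change of low genes), with the acinar covariate and without Model 1 and Model 3, it was 8 by DESeq2, and it was 4 to 8 with 1 mouse left out. Between Model_Swim and Ctrl_Swim the count of 1 was 0 with no filter on low counts, with only the groups compared, by limma at each of its 3 settings, with either acinar term and with the replicate block, and 0 to 1 with 1 mouse left out. The AOM/DSS count of 4 was 1 by limma on log2(FPKM + 1), with and without a filter, 3 without Model 1 and Model 3 and 5 without Ctrl_Swim 4. The cause of the other changes was not tested. With replicate number as a block, which did not pair the mice (of 15 pairs of libraries with the same number, 4 had deviations from the group means that correlated over 0.1), the Model vs Ctrl count was 8 and the AOM/DSS count 5. Only Ctrl_Swim 4 carries the number 4, so the block fits this library exactly and it adds nothing to the group differences. With Ctrl_Swim 4 left out, the 2 counts were also 8 and 5.

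Some log2 fold changes turned sign, none of them past the cutoffs on either side. Under the replicate block this held for Cd3e (-0.00082) and Icos (-0.35) in Ctrl_Swim vs Ctrl, and for Cd3e (0.46), Cd3g (0.69), Cd8a (0.19) and Cd8b1 (0.79) in Model_Swim vs Ctrl_Swim. With the acinar covariate it held for Gzmb in Model vs Ctrl (-0.30) and for Cd8a (0.14), Cd8b1 (0.84) and Gzmb (0.14) in Model_Swim vs Model. With the division by acinar genes, whose size is set by the Ctrl_Swim libraries alone, it held for Gzmb in Model_Swim vs Model (0.0014). There it also held for Icos (-0.17) and Cd3d (-0.14) in Ctrl_Swim vs Ctrl and for Cd3d in Model_Swim vs Ctrl_Swim (-0.051). Without Model 1 and Model 3 it held for Gzmb in Model vs Ctrl (-0.31), for Cd8a (0.30) and Cd8b1 (0.90) in Model_Swim vs Model and for Cd8a in the AOM/DSS mean (-0.061). By limma, Cd3g in Model_Swim vs Ctrl_Swim was at 0.076 with a pseudocount of 1, with and without a filter, and at 0.12 with 0.1, where Cd8b1 was at 0.076.

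With 1 mouse left out in turn, log2 fold changes ran from -0.11 to 0.21 for Gzmb in Model vs Ctrl, from -0.51 to 0.089 for Cd8a in Model_Swim vs Model, and from -0.33 to 0.24 for Icos in Ctrl_Swim vs Ctrl. In Model_Swim vs Ctrl_Swim they ran from -0.39 to 0.33 for Cd3e, from -0.060 to 0.63 for Cd3d, from -0.28 to 0.66 for Cd3g, from -0.66 to 0.16 for Cd8a and from -0.71 to 0.98 for Cd8b1, the highest each time without Ctrl_Swim 4. The log2 ratio difference with AOM/DSS ran from 0.59 to 0.86 for Cd4/Cd3e, from -0.45 to -0.20 for Cd8a/Cd3e and from 0.37 to 0.79 for Cd8b1/Cd8a, and it was -0.70 for Gzmb/Cd3e without Model 1 and Model 3 (no longer past the threshold). Between Model_Swim and Model it ran from -0.30 to 0.39 for Cd8b1/Cd8a, from -0.34 to 0.30 for Cd8a/Cd4, from -0.33 to 0.033 for Foxp3/Cd3e and from -0.25 to 0.042 for Icos/Cd3e. A fit of only the groups compared is the same as the reported one for the AOM/DSS mean and the interaction, which use all 4 groups. At 2 to 619 counts per library, counting error limits Foxp3, Ctla4 and Cd8b1 most.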
